A study of Mus musculus with 13 samples.

Results

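Cells positive for a green fluorescent reporter of Stella were compared with cells negative for it, both taken from mouse embryoid bodies at day 7 of culture. Embryoid bodies are aggregates of embryonic stem cells (ESC) left to differentiate in suspension. The comparison rests on 6 of the 13 arrays in the series, chosen by their titles: 4 arrays of day 7 Stella-positive cells, which the submitters describe as primordial germ cells made in vitro, and 2 arrays of day 7 Stella-negative cells, which they describe as not being germ cells. Both groups carry the same StellaGFP reporter. The other 7 arrays are of Stella-positive, Stella-negative and unsorted ESC, and entered the same statistical model to estimate the spread between arrays. The sources used here do not give the strain, parental line, clone number or culture additions. The labels do not tell whether replicate arrays came from independent cultures, and the p-values below then reflect array-to-array spread that may be technical.

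Primordial germ cells are the founders of sperm and eggs. In the mouse embryo they arise from the epiblast in response to BMP signals, silence the somatic programme of their neighbours, keep pluripotency factors switched on, and erase much of their DNA methylation while they migrate and multiply. Later, in the gonad, they switch on genes for RNA-based transposon silencing and meiosis. Embryoid bodies hold many other lineages beside them, among them yolk sac endoderm, blood, endothelium, heart muscle and connective tissue.

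Total RNA was hybridised to Affymetrix Mouse430_2 arrays, and the values are MAS5 signal intensities rescaled here so that every array had the same trimmed mean, 105.2. Values below are this scaled signal, given for Stella-positive arrays 1 to 4 and then Stella-negative arrays 1 and 2. Differences are log2(signal + 10.5), positive minus negative, with limma standard errors (SE), and shrink towards 0 for dim genes. A gene is said to have risen or fallen in the Stella-positive cells where its Benjamini-Hochberg adjusted p over 30023 probe sets was under 0.05. Several measurements of the arrays themselves differed between the groups. The trimmed mean before scaling was 82.9, 71.7, 29.1 and 8.48 on the positive arrays, against 51.4 and 63.4 on the negative arrays. Control probe sets at the 3' and 5' ends of actin, whose 3'/5' ratio climbs as labelled RNA gets shorter, gave ratios of 2.04, 2.17, 4.89 and 5.16 on the positive arrays, against 5.48 and 5.85 on the negative arrays. The Gapdh ratio was 1.32, 1.23, 1.65 and 2.09 on the positive arrays, against 3.03 and 3.18 on the negative arrays. Positive array 4 was thus the dimmest, and its signals were multiplied by 12.4. On the ESC arrays the trimmed mean ran from 78.1 to 230.0 and the actin ratio from 1.12 to 1.23. Replicates correlated at 0.846 to 0.953 among positive arrays and at 0.923 between the negative arrays, against 0.773 to 0.883 between the groups. Negative array 2 and positive arrays 1, 2 and 3 shared a hybridisation run, while negative array 1 and positive array 4 each had a run of their own.

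**Figure D1:**
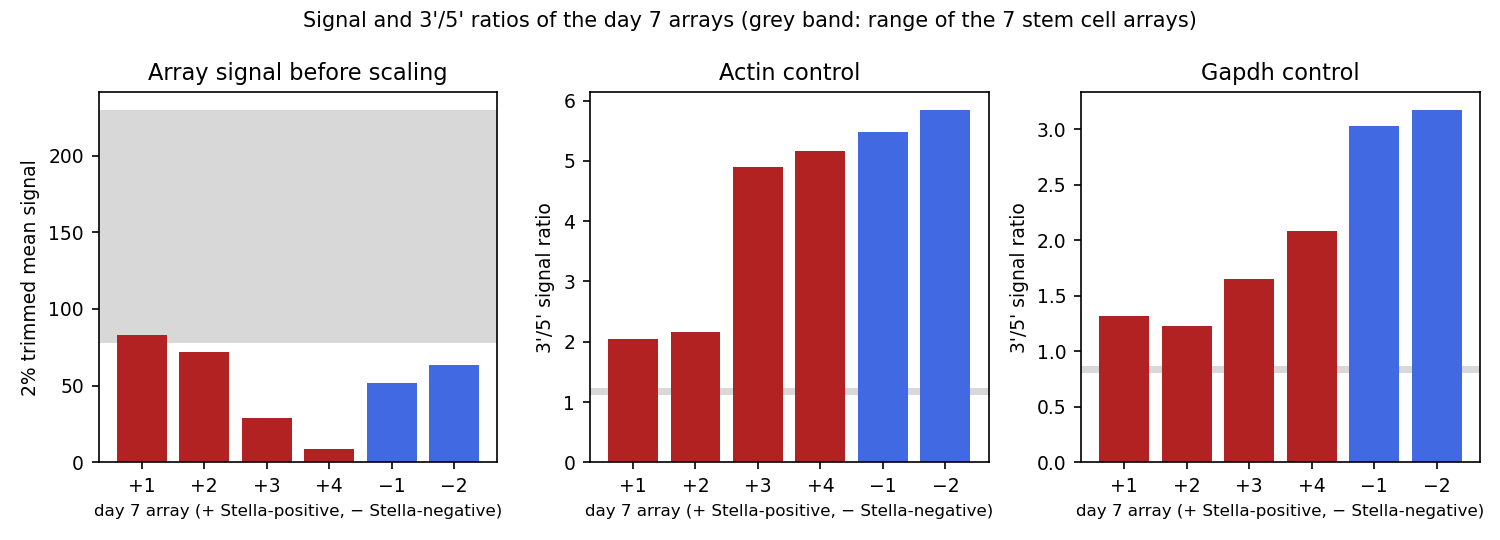
Trimmed mean signal before scaling, actin 3'/5' ratio and Gapdh 3'/5' ratio of each day 7 array, with the 4 Stella-positive arrays on the left and the 2 Stella-negative arrays on the right of each panel. Positive arrays 1 and 2 have actin ratios of 2.04 and 2.17, while positive arrays 3 and 4, at 4.89 and 5.16, lie near the negative arrays, and array 4 has the lowest signal.

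The targeted marker followed the labels. Dppa3 encodes Stella, a maternal and germ cell protein that protects DNA from loss of methylation in the zygote. Its signal was 807, 728, 1078 and 1138 on Stella-positive arrays 1 to 4, against 74.6 and 101 on the Stella-negative arrays, a difference of 3.26 ± 0.26 (SE; adjusted p = 4.06e-06). The groups did not overlap. The 3 other markers of the positive fraction, Tfap2c, Dmrt1 and Smc1b, were also higher on every positive array than on either negative array, with values below. This was so for 19% of all tested genes. Since the cells were separated by a reporter of Dppa3, its level checks the labels and is no finding.

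Across the array, 2564 of 30023 probe sets rose (8.54%) and 2362 fell (7.87%) in the Stella-positive cells, 16.4% in all. With 1 probe set per gene, 1434 of 14007 genes rose (10.2%) and 1270 fell (9.07%), and the median difference of all genes was -0.09. All positive arrays lay above both negative arrays in 2664 of these genes (19%) and below both in 3212 (22.9%). These shares are the background against which the gene lists and single genes below are read. The counts rest strongly on the pair of negative arrays: without negative array 1 they were 837 probe sets higher and 361 lower, and without negative array 2 they were 1255 and 565. Within the shared hybridisation run, 1291 probe sets were higher and 790 lower, with the lone negative array assumed to vary like the other groups. Median centring in place of trimmed-mean scaling gave 3214 higher and 922 lower, so that 77.7% of calls were rises, against 52.1% here. With the Gapdh 3'/5' ratio as a covariate (Gapdh as a covariate, below) 1945 of the 4926 calls were called again in the same direction, and with the actin ratio 3707. Neither the Gapdh ratio nor the actin ratio overlapped between the groups, and their part in the results was not tested beyond these covariates. Of the 180 genes followed through the alternatives, 96 lost their call without negative array 1, 78 without negative array 2, 79 within the shared run, 90 with run as a block and 58 with the Gapdh covariate. Among called genes named below, that covariate turned the direction of Mycn, Ccnd2, Pfkp, Apoc1, Commd1, Tdgf1, Igfbp2 and the Polycomb gene Phc1, and it turned the sign of the median of the cholesterol, Hox, Wnt and nuclear noncoding RNA lists. Median centring moved the median difference of all probe sets to 0.12, against -0.12 here. In bulk samples such as these, fewer cells of a type and less RNA per cell cannot be told apart.

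**Figure D2:**
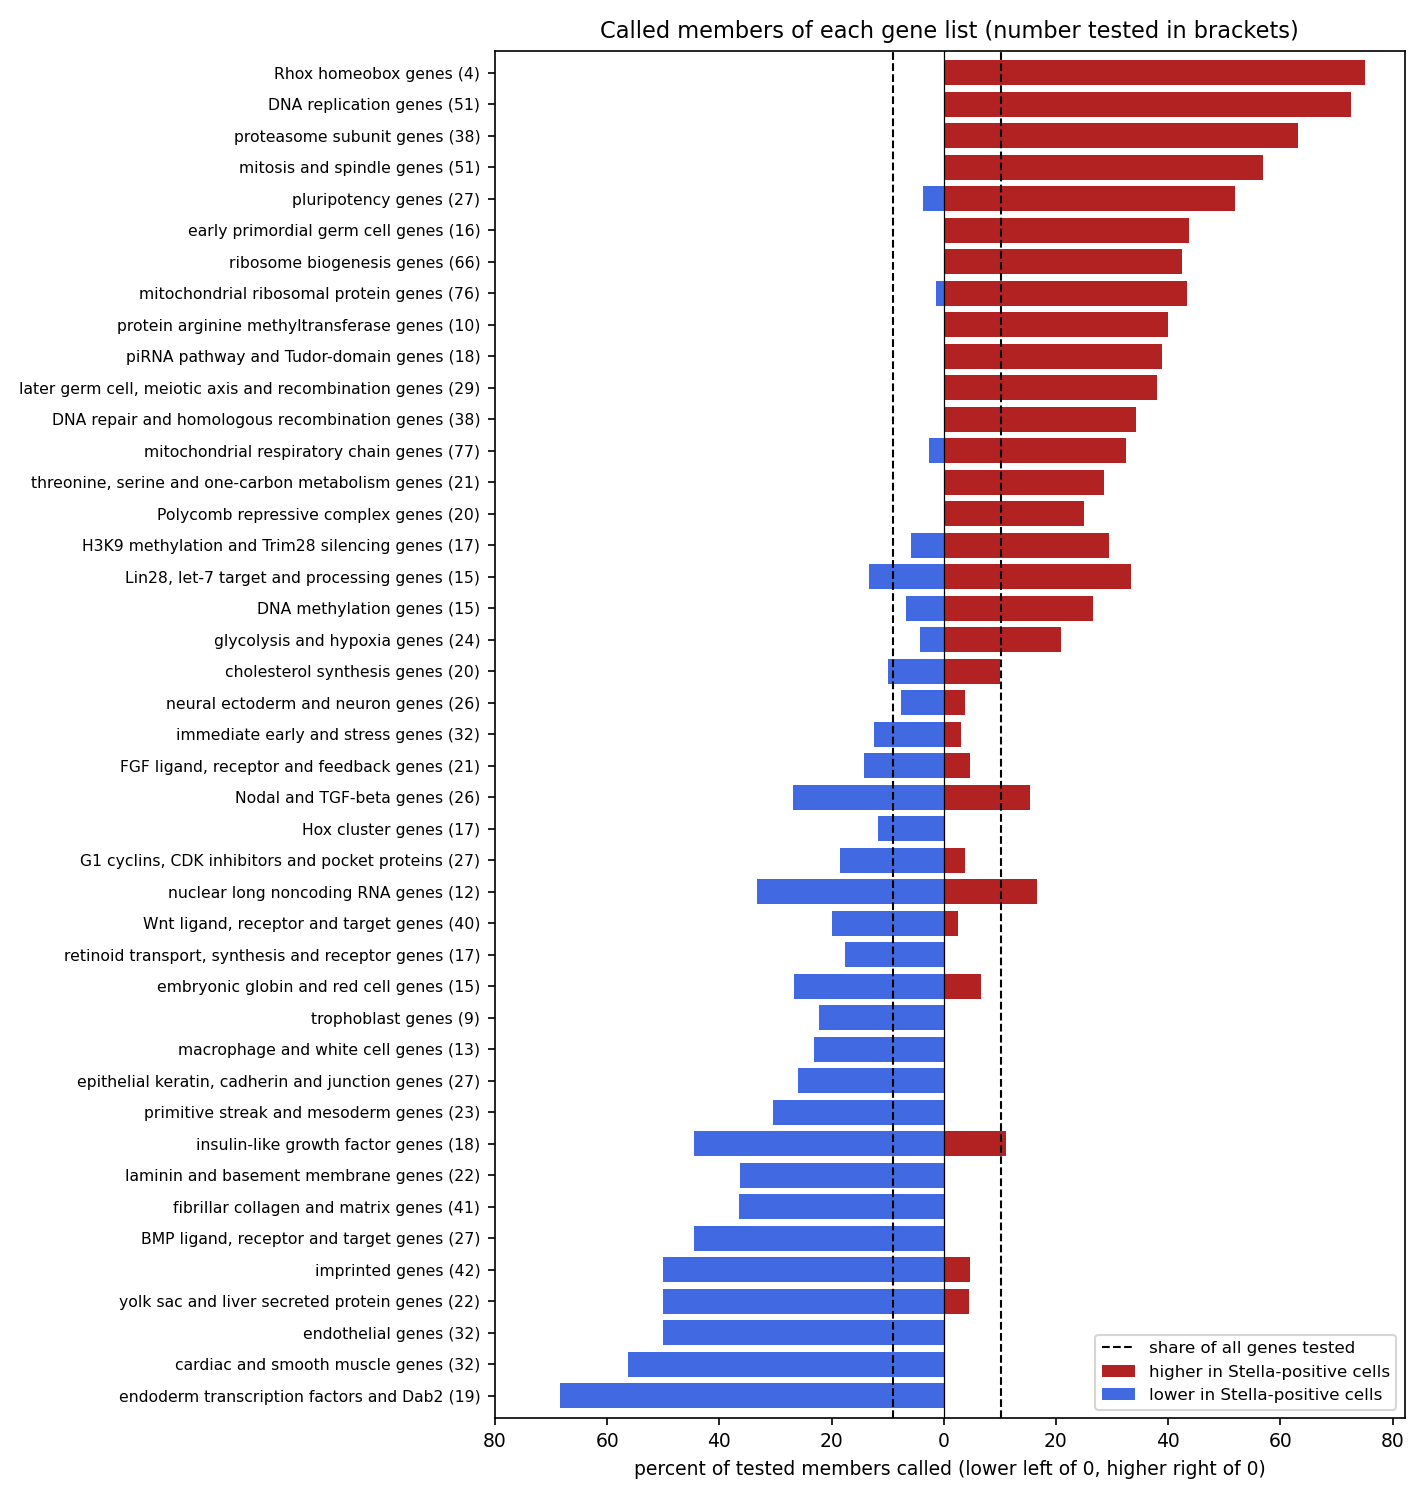
Percentage of the tested members of each gene list that fell (left of 0) or rose (right of 0) in Stella-positive relative to Stella-negative cells at an adjusted p under 0.05, with the number of tested members in brackets and dashed lines at the shares of all tested genes. Rhox, replication, proteasome, mitosis and pluripotency lists have the longest bars to the right (3 of 4, 37 of 51, 24 of 38, 29 of 51 and 14 of 27 members), and endoderm regulators and cardiac genes the longest to the left (13 of 19 and 18 of 32).

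Genes of early primordial germ cells were partly higher in the Stella-positive cells. Of 16 tested members, 7 rose and 0 fell, with a median of 0.76. Tfap2c, a transcription factor required for primordial germ cells, had signals of 789, 744, 516 and 494 on the positive arrays, against 143 and 152 on the negative arrays. All 4 positive arrays lay above both negative arrays, and the rise was 2.005 ± 0.25 (adjusted p = 0.000115). Nr5a2, a nuclear receptor that acts on Pou5f1 in the epiblast, rose by 1.31 ± 0.27, with 704, 514, 592 and 562 in positive cells against 236 and 225 in negative cells. Elavl2, a neuronal and germ cell RNA-binding protein, rose by 1.31 ± 0.24, with 399, 302, 503 and 641 in positive cells against 188 and 159 in negative cells. Its 5 tested probe sets disagreed: 2 were called higher and only 3 had a positive difference. Prdm1 and Prdm14, needed to specify germ cells in the mouse, did not pass the test. Prdm1, the repressor Blimp1 that shuts down the somatic programme, read 153, 162, 139 and 112 on the positive arrays and 173 and 151 on the negative arrays, and the groups overlapped (-0.19 ± 0.26, adjusted p = 0.655). Its partner Prdm14 read 259.6, 254, 192 and 204 in positive cells against 133 and 108 in negative cells, apart in every array but short of the threshold (0.86 ± 0.31, adjusted p = 0.0706). Kit, the receptor on which migrating germ cells depend, read 236, 277, 280.4 and 176 in positive cells against 147 and 166 in negative cells (0.58 ± 0.26, adjusted p = 0.142). The other tested Kit probe set pointed the other way, at -0.46 ± 0.26. Ifitm3, a surface protein of early germ cells also known as fragilis, read 1396, 1364, 864 and 771 in positive cells against 755 and 716 in negative cells (0.52 ± 0.26, adjusted p = 0.185).

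Genes of the later germ line and of meiosis were also partly higher. Of 29 tested members 11 rose and 0 fell, with a median of 0.92. Smc1b, the meiotic form of a cohesin subunit that holds sister chromatids together, had signals of 177, 155, 133 and 227 on the positive arrays, against 12.04 and 16.8 on the negative arrays (2.86 ± 0.55, adjusted p = 0.00258). The lowest positive array was far above the higher negative array. Mnd1, which helps a strand-exchange complex pair homologous chromosomes, read 151, 147, 127 and 125 in positive cells against 24.8 and 29.4 in negative cells and rose by 1.98 ± 0.24. Some regulators differed among the positive arrays themselves. Dmrt1, a regulator of gonadal sex and of germ cell differentiation, read 195, 186, 512 and 362 on the positive arrays and 50.8 and 35.6 on the negative arrays (2.49 ± 0.37). Stra8, the retinoic-acid-induced gatekeeper of meiotic entry, read 242, 228, 635 and 613 in positive cells against 94.2 and 88.4 in negative cells (1.95 ± 0.40). For both genes positive arrays 3 and 4 were higher than positive arrays 1 and 2, and all 4 lay above the negative arrays. Tex14, which keeps the bridges between dividing germ cells open, read 245, 281, 542 and 570.2 in positive cells against 117 and 97.9 in negative cells (1.74 ± 0.35), and the germ cell factor Sohlh2 read 247, 257, 621 and 583 in positive cells against 121 and 120.0 in negative cells (1.62 ± 0.34). These last 2 genes were chosen after their values were seen, because they show the same order among the positive arrays. Dazl, an RNA-binding protein that licenses gonadal germ cells, read 453, 520.4, 867 and 512 in positive cells against 155 and 193 in negative cells (1.66 ± 0.39), and both of its tested probe sets rose. Sycp3, a core protein of the synaptonemal complex, went against this order: it read 364, 300.0, 135 and 135 on the positive arrays and 139 and 149.8 on the negative arrays, overlapped between the groups and did not pass (0.53 ± 0.45, adjusted p = 0.457).

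Germ cells silence transposons with small RNAs bound by Piwi proteins, and 7 of 18 tested genes of this machinery rose while 0 fell (median 1.04). Tdrd12, a tudor-domain protein of the piRNA pathway, read 241, 248, 279.7 and 174 on the positive arrays, against 46.0 and 64.5 on the negative arrays (1.90 ± 0.24). Gpat2, a mitochondrial acyltransferase-like protein of the same pathway, read 122, 122, 142 and 145 in positive cells against 30.7 and 28.6 in negative cells (1.83 ± 0.47). Rnf17, a germ cell tudor protein, read 263, 250.5, 316 and 383 in positive cells against 73.1 and 81.8 in negative cells (1.82 ± 0.26), although only 1 of its 4 tested probe sets was called. Ddx4, the helicase also called Vasa, read 103, 121, 71.4 and 71.8 in positive cells against 32.9 and 32.4 in negative cells with every positive array above both negative arrays (1.21 ± 0.34, adjusted p = 0.0242). The summed signal of the piRNA list was the most even of the germ line lists, at 232, 229, 244 and 228% of the mean of the negative arrays on positive arrays 1 to 4. The early germ cell sum was 202, 199.9, 170.3 and 149%, and the meiosis sum 214, 199, 270.3 and 237%. With only positive arrays 3 and 4, on which endoderm transcripts were lowest, 4 early, 12 meiotic and 7 piRNA genes rose. Within the shared run, 6 early, 7 meiotic and 3 piRNA genes rose, and with run as a block 5, 4 and 4. Without negative array 1 the 3 counts were 3, 6 and 3, and without negative array 2 they were 2, 7 and 4. With Gapdh as a covariate they were 2, 7 and 3, with 1 early and 1 meiotic gene called lower, and the median of the early list was 0.19.

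**Figure D3:**
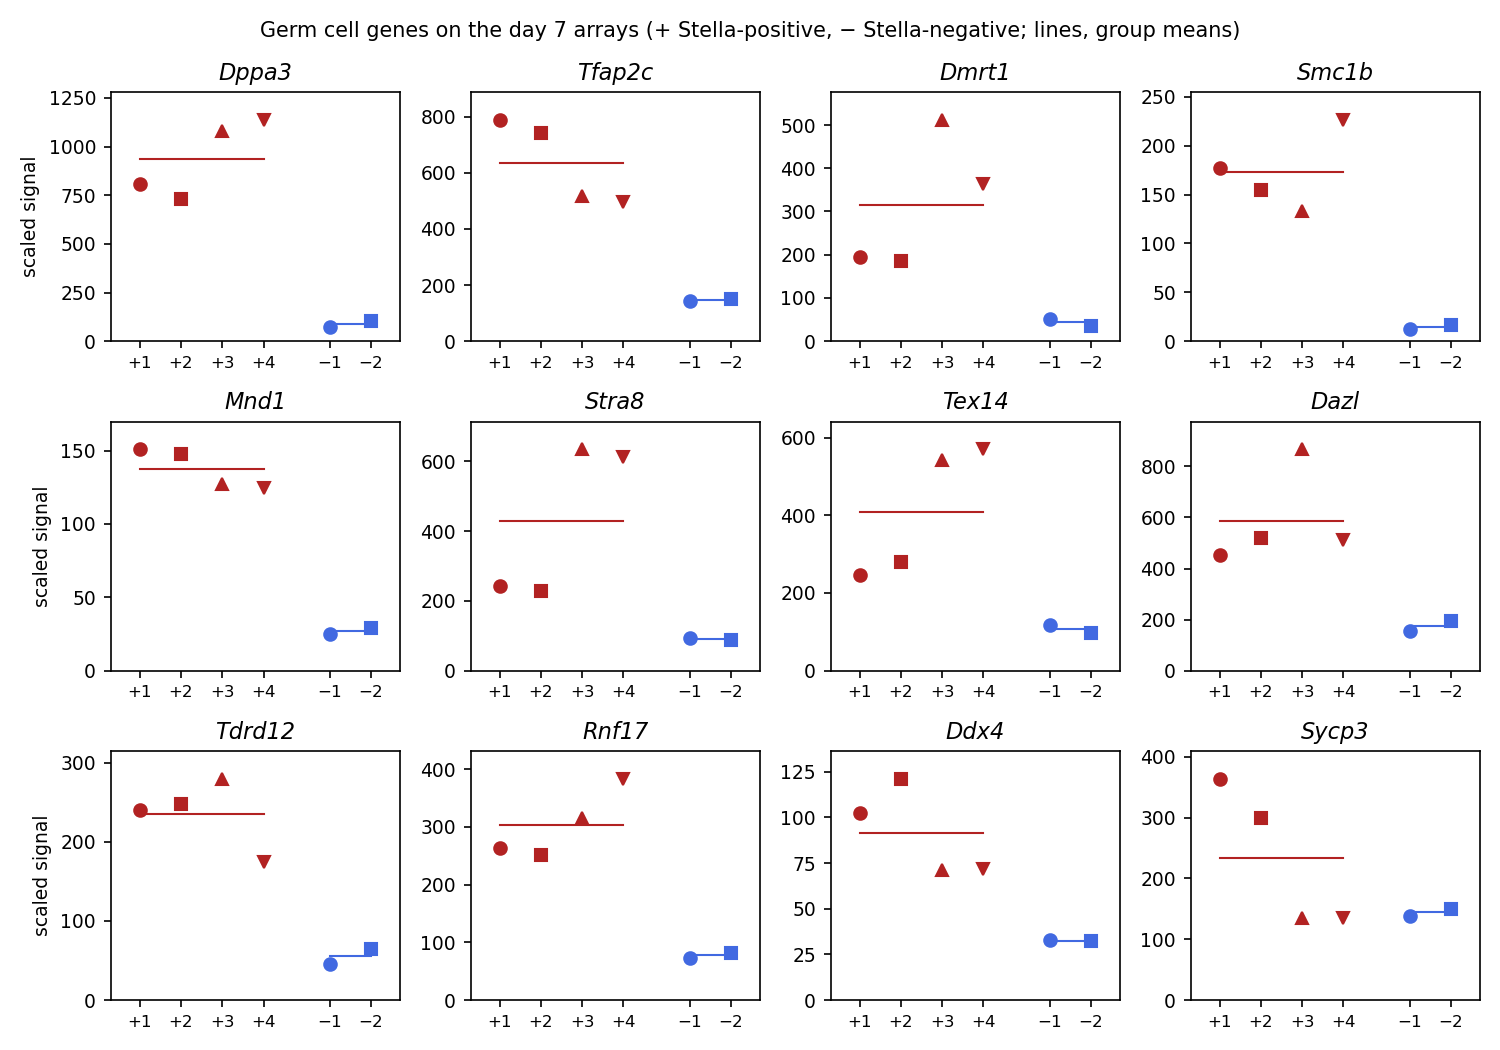
Scaled signal of germ cell genes on each day 7 array, with horizontal lines at the group means. The genes are Dppa3, Tfap2c, Dmrt1, Smc1b, Mnd1, Stra8, Tex14, Dazl, Tdrd12, Rnf17, Ddx4 and Sycp3. The 4 Stella-positive arrays are on the left (+1 to +4) and the 2 Stella-negative arrays on the right (−1 and −2). Sycp3 overlaps between the groups, and Dmrt1 and Stra8 are higher on positive arrays 3 and 4 than on positive arrays 1 and 2.

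Pluripotency genes were higher in the Stella-positive cells in 14 of 27 tested cases, with 1 lower and a median of 0.76. Pou5f1, the core factor Oct4, read 1083, 1093, 939.8 and 937 on the positive arrays, against 289 and 309 on the negative arrays (1.72 ± 0.18, adjusted p = 4.94e-05). The positive arrays lay within a narrow band, each well above both negative arrays. Sox2, its partner on DNA, read 3264, 2719, 2418 and 2745 in positive cells against 1246 and 1349.7 in negative cells (1.09 ± 0.21). Fbxo15, an F-box gene used as a pluripotency reporter, read 1493, 1432, 869 and 620.1 in positive cells against 269 and 338 in negative cells (1.75 ± 0.30), and Dppa4, a chromatin protein of stem and germ cells, 1330.2, 1408, 1254 and 929.7 in positive cells against 361 and 458 in negative cells (1.56 ± 0.22). Nanog overlapped between the groups at 1597, 1591, 1409 and 876 in positive cells against 873 and 939.8 in negative cells and did not pass (0.55 ± 0.26, adjusted p = 0.166). Leaving out negative array 1, the list had 3 members higher, without negative array 2 it had 7, within the shared run 7, with run as a block 5, and with Gapdh as a covariate 3.

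The exception within the list was Lin28a, an RNA-binding protein that blocks maturation of the let-7 microRNA. Its representative probe set read 536, 526, 82.5 and 97.7 on the positive arrays and 1607 and 1639 on the negative arrays and fell by 2.81 ± 0.56, while its other tested probe set pointed the other way without passing (0.52 ± 0.31, with 665, 556, 265 and 522 on the positive arrays against 341 and 316 on the negative arrays). Among 15 genes of the Lin28 and let-7 axis, 5 rose and 2 fell. Hmga2, a chromatin architectural protein and classic let-7 target, read 868, 866, 802 and 749 in positive cells against 3192 and 3170.4 in negative cells (-1.94 ± 0.33). Mycn, a growth-promoting transcription factor, rose by 1.09 ± 0.26, the let-7 target Igf2bp1 by 1.06 ± 0.20 and Drosha, the nuclear nuclease of microRNA processing, by 1.06 ± 0.27.

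The X-linked Rhox homeobox genes, expressed in germ cells and placenta, had 3 of 4 tested members higher. Rhox5 read 2581, 2357, 1649.7 and 1227 on the positive arrays, against 353 and 461 on the negative arrays (2.19 ± 0.31). Rhox6 read 111, 134, 128 and 143 in positive cells against 22.4 and 41.1 in negative cells (1.75 ± 0.32) and Rhox9 109, 129, 107 and 109 in positive cells against 56.8 and 41.5 in negative cells (1.06 ± 0.33). The count was 1 without negative array 1 and 2 without negative array 2.

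Among chromatin regulators, most did not pass the test. In the DNA methylation list 4 of 15 members rose and 1 fell, with a median of 0.03, near the median of all genes. Dnmt3l, the cofactor that directs new DNA methylation in germ cells, read 942, 1012, 516 and 535 on the positive arrays, against 128 and 190.2 on the negative arrays (2.12 ± 0.28). Positive arrays 1 and 2 read higher than 3 and 4, and all lay above both negative arrays. Mbd3, a subunit of the NuRD repressor complex, rose by 1.90 ± 0.29, and Uhrf1, which brings the maintenance methyltransferase to replicated DNA, by 0.82 ± 0.24. Zbtb33, the methyl-DNA-binding repressor Kaiso, fell by 0.95 ± 0.25 (201, 225, 205 and 113 in positive cells against 345 and 374 in negative cells). The other 10 tested members did not pass.

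Among protein arginine methyltransferases and their partners, 4 of 10 rose. Prmt5, which modifies histones and Piwi proteins in germ cells, read 696, 863, 1031 and 908 in positive cells against 235 and 347 in negative cells (1.56 ± 0.21), and its partner Wdr77 rose by 0.68 ± 0.19. Of 20 Polycomb genes 5 rose and 0 fell. The core subunit Suz12 read 2643, 2002, 3226 and 3841 in positive cells against 1282 and 1145 in negative cells (1.23 ± 0.28, with 3 of 6 probe sets called) and the accessory subunit Mtf2 2611, 2504, 2288 and 2628 in positive cells against 1043 and 1253 in negative cells (1.12 ± 0.19, also 3 of 6). In the list of histone H3 lysine 9 methylation and of the E2f6 and Mga complex, 5 of 17 rose and 1 fell. Mga, which in mouse ESC represses meiotic genes together with E2f6, read 493, 538, 349 and 478 on the positive arrays, against 134 and 129 on the negative arrays (1.73 ± 0.22, with 1 of 4 probe sets called). E2f6 itself read 89.6, 129.7, 137 and 89.2 in positive cells against 282 and 258 in negative cells and fell by 1.23 ± 0.29. Trim28, the corepressor of zinc finger proteins on transposons, rose by 1.14 ± 0.21 from both of its probe sets, and the methyltransferase Ehmt2, also called G9a, by 0.98 ± 0.18. Polycomb counts were 1 and 1 without negative arrays 1 and 2 in turn, and the counts of the other 3 lists were 2 and 2 (DNA methylation), 1 and 1 (arginine methylation) and 2 and 3 (H3 lysine 9). In the H3 lysine 9 list 5 rose within the shared run and 2 with run as a block.

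Genes of DNA replication and mitosis were higher in the Stella-positive cells. Of 51 tested replication genes, 37 rose and 0 fell, with a median of 0.79, and of 51 mitotic genes 29 rose and 0 fell, with a median of 0.71. Mcm2, a subunit of the helicase that opens replication origins, read 2890.5, 3003, 2814 and 1927 on the positive arrays, against 970.1 and 958 on the negative arrays (1.43 ± 0.24). Its fellow subunit Mcm6 read 1225, 1232, 1364 and 1021 in positive cells against 399 and 526 in negative cells (1.37 ± 0.18). Dut, which keeps uracil out of DNA, read 532, 415, 448 and 528 in positive cells against 141 and 166 in negative cells (1.58 ± 0.28). Among the positive arrays Mcm2 was lower on array 4, and the 3 genes showed no split between arrays 1 and 2 and arrays 3 and 4 like that of Stra8. Ube2s, a ubiquitin-conjugating enzyme of the anaphase-promoting complex, had the lowest adjusted p of the mitotic genes: it read 2081, 2504, 2651 and 2522 in positive cells against 469 and 368 in negative cells (2.52 ± 0.20, adjusted p = 4.06e-06). Its partner enzyme Ube2c read 1109, 1225, 1174 and 1022 in positive cells against 385 and 394 in negative cells (1.51 ± 0.19), and Cdc25c, the phosphatase that triggers entry into mitosis, 144, 109, 190.1 and 221 in positive cells against 33.5 and 61.0 in negative cells (1.61 ± 0.29).

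Among regulators of G1 more members fell than rose. Of 27 tested G1 regulators, 1 rose and 5 fell (median -0.28). The cyclin-dependent kinase inhibitors Cdkn1b (p27) and Cdkn1c (p57) fell by 1.53 ± 0.37 and 1.30 ± 0.35. Cdkn1b read 229, 183, 145 and 100.1 on the positive arrays and 689 and 327 on the negative arrays, and its negative arrays differed the more from each other. Ccnd2, a G1 cyclin, fell by 1.22 ± 0.39 (254, 200.1, 319 and 365 in positive cells against 638 and 685 in negative cells), and E2f1, an activator of S phase genes, was the riser (1.22 ± 0.33). It read 146, 127, 147 and 357 in positive cells against 69.7 and 70.9 in negative cells, with positive array 4 apart from the others. Of 38 DNA repair genes 13 rose and 0 fell (median 0.61). The mismatch repair gene Msh6 read 1298, 1294, 1227 and 1266 in positive cells against 388 and 362 in negative cells (1.73 ± 0.21), Rad54b, of homologous recombination, rose by 1.49 ± 0.28 and the checkpoint kinase gene Atr by 1.22 ± 0.26.

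Within the shared run 18 replication, 16 mitotic and 7 repair genes rose, and with run as a block 14, 14 and 5. Without negative array 1 the counts were 13, 14 and 6, then 17, 16 and 9 without negative array 2, and 10, 10 and 8 with Gapdh as a covariate, where 2 mitotic genes were called lower. Using only positive arrays 1 and 2 the counts were 33, 28 and 17, and using only positive arrays 3 and 4 they were 23, 27 and 15.

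Because many mitotic and replication genes rose, their promoters were read for the short elements through which cell cycle genes are known to be timed. The element TTTGAA is the core of the cell cycle genes homology region, CCAAT is the box bound by the factor NF-Y, and TCCCGC is an E2F site. All 3 were searched on both strands in windows of 250 bases before to 50 bases after the start site, in RefSeq promoters of the mouse build GRCm38.p6. TTTGAA lay in 20 of the 23 mitotic risers with a promoter in the table (87.0%), in 9 of the 19 mitotic genes that did not pass (47.4%) and in 12.1% of the 11254 tested genes with a promoter. Within 50 bases of the start site it lay in 18 of the 23 risers, against 3.02% of the tested genes. CCAAT lay in 19 of the 23 (82.6%), against 38.4% of tested genes, and both elements in 17 (73.9%), against 4.89%. TCCCGC lay in 19 of the 31 replication risers (61.3%), in 9 of the 11 replication genes that did not pass (81.8%) and in 33.8% of tested genes. A match of letters is a description and not evidence of binding. The 250 bases before the start of 3 mitotic risers are shown, 5′ to 3′ on the gene's strand. Genes on a single chromosome were left out of this choice, whatever the size of their rise. Among the remaining risers with both elements before the start site, these 3 had the largest rises. Capitals mark TTTGAA or its reverse TTCAAA, and CCAAT or its reverse ATTGG. Ube2c lies at chr2:164769679-164769928 on the plus strand, Ncapd2, a condensin subunit, at chr6:125191587-125191836 on the minus strand, and Ccnb2, a mitotic cyclin, at chr9:70421555-70421804 on the minus strand.
Ube2c: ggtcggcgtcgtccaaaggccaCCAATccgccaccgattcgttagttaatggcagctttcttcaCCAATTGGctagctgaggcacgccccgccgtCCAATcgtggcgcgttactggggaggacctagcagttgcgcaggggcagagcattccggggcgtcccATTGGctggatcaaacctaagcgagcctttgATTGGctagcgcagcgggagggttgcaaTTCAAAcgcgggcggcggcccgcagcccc
Ncapd2: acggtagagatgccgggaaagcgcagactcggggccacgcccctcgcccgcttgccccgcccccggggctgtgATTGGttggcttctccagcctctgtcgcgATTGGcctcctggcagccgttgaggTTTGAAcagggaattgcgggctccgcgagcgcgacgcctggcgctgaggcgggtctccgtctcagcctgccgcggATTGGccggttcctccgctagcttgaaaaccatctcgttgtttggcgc
Ccnb2: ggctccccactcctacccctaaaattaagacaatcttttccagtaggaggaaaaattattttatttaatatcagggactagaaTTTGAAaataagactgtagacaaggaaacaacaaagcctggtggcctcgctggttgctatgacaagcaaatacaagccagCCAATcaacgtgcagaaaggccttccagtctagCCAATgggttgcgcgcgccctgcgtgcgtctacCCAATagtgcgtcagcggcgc

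The first base of the element lay at −29 in Ube2c, −123 in Ncapd2 and −167 in Ccnb2, counted from the start site. Ncapd2 and Ccnb2 were chosen after their values were seen. Ncapd2 read 311, 357, 521 and 452 on the positive arrays, against 195 and 125 on the negative arrays (1.31 ± 0.24), and Ccnb2 730.2, 730.2, 743 and 589 in positive cells against 301 and 257 in negative cells (1.29 ± 0.18). The replication genes Dut (chr2:125247265-125247514, plus strand) and Mcm2 (chr6:88898781-88899030, minus strand) are shown next. With the chromosome left out of the mitotic choice left out here too, they have the largest rises among replication risers with the E2F letters before the start site. Capitals mark only those letters, TCCCGC or its reverse GCGGGA. Left in lower case are 1 match of TTTGAA and 1 of ATTGG in Mcm2, and, above, 1 match of GCGGGA in Ube2c.
Dut: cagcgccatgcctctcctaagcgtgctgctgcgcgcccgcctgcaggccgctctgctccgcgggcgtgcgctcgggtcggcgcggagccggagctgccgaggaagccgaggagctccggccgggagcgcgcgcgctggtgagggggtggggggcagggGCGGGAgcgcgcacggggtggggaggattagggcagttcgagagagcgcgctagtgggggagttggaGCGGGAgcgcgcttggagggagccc
Mcm2: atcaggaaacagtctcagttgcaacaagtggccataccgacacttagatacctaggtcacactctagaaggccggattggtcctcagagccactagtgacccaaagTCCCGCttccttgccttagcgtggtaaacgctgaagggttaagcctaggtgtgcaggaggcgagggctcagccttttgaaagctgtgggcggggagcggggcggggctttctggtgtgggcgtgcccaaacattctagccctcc

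Genes of ribosome assembly, of the mitochondrial ribosome and of the proteasome were partly higher. Of 66 ribosome biogenesis genes 28 rose and 0 fell (median 0.68). The RNA helicase gene Ddx49 read 159.7, 135, 207 and 167 on the positive arrays, against 10.4 and 24.4 on the negative arrays (2.70 ± 0.26, with 1 of 2 probe sets called). The nucleolar gene Nol12 rose by 2.07 ± 0.39, with 350.3, 323, 338 and 484 in positive cells against 31.8 and 182 in negative cells, so the negative arrays were far apart. Tcof1, the treacle protein of ribosomal RNA transcription, read 353, 303, 875 and 664 in positive cells against 182 and 118 in negative cells (1.70 ± 0.34). Of 76 mitochondrial ribosome genes 33 rose and 1 fell (median 0.59), led by Mrps11 (241, 166, 163 and 187 in positive cells against 29.9 and 52.5 in negative cells, 1.97 ± 0.24), Mrps5 (1.41 ± 0.20) and Mrpl12 (1.39 ± 0.26). The proteasome, which degrades ubiquitin-tagged proteins, had 24 of 38 genes higher and 0 lower (median 0.71). Its regulatory subunit gene Psmd7 read 308, 287, 318 and 452 in positive cells against 69.6 and 67.6 in negative cells (2.13 ± 0.22), and the core particle genes Psmb3 and Psmb10 rose by 1.43 ± 0.21 and 1.34 ± 0.36.

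Respiratory chain genes rose in part: 25 of 77 rose and 2 fell (median 0.36). Atp5g1, a subunit of the ATP synthase ring, read 2040.2, 1888, 1621 and 1639.8 on the positive arrays, against 610.3 and 485 on the negative arrays (1.70 ± 0.27), and Ndufb10, of complex I, rose by 1.29 ± 0.21. Isoforms of heart and muscle cytochrome oxidase differed in direction. Cox7a1 read 183, 133, 480.0 and 525 in positive cells against 132 and 96.2 in negative cells and rose by 1.24 ± 0.41, while Cox6a2 read 47.0, 85.4, 72.0 and 145 in positive cells against 261 and 299 in negative cells and fell by 1.66 ± 0.36. The complex IV-associated gene Ndufa4 fell by 0.73 ± 0.22.

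Counts within the shared run were 14 for ribosome biogenesis, 16 for the mitochondrial ribosome, 10 for the proteasome and 10 for the respiratory chain, and with run as a block 14, 12, 9 and 9. Without negative array 1 they were 11, 11, 9 and 6, then 18, 18, 12 and 8 without negative array 2, and 12, 17, 9 and 10 with Gapdh as a covariate, where 2 ribosome biogenesis genes and 1 proteasome gene were called lower.

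Metabolic lists moved by fewer members. Of 21 genes of serine, one-carbon and purine metabolism 6 rose and 0 fell, with the mitochondrial folate enzyme gene Mthfd2 at 1.22 ± 0.30, the purine synthesis gene Gart at 1.21 ± 0.20 and the serine-glycine enzyme gene Shmt1 at 1.10 ± 0.25. With Gapdh as a covariate 0 of them were called higher, within the run 2, and without negative arrays 1 and 2 in turn 1 and 2. In cholesterol synthesis, Fdps (1.26 ± 0.33) and Msmo1 (0.97 ± 0.29) rose while Hsd17b7 (-1.18 ± 0.31) and Stard4 (-0.98 ± 0.23) fell, out of 20. These 2 rises and 2 falls lay near the shares of all tested genes, 10.2% higher and 9.07% lower. Of 24 glycolysis and hypoxia genes, 5 rose and 1 fell. The risers included Pdk1 (0.85 ± 0.26), which limits the entry of pyruvate into mitochondria, the phosphofructokinase gene Pfkp (0.81 ± 0.24) and the pyruvate kinase gene Pkm (0.75 ± 0.16). The faller was Ldha, which makes lactate, at 1304, 1171, 672 and 584 on the positive arrays against 1547 and 2046 on the negative arrays (-1.01 ± 0.30). In the last 2 lists no more than 1 member was called in either direction without negative array 1 or 2.

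Many genes of endoderm, endothelium and heart muscle were lower in the Stella-positive cells, and endoderm regulators had the lowest median of the 43 lists. Of 19 endoderm regulators and surface genes 13 fell and 0 rose (median -1.71). Of 22 genes for proteins that yolk sac visceral endoderm secretes or absorbs, 11 fell and 1 rose (median -1.40). Ttr, the carrier of thyroid hormone, read 4072, 4029, 26.4 and 73.7 on the positive arrays, against 11349 and 12504 on the negative arrays (-4.65 ± 1.34, adjusted p = 0.0263). Afp, alpha-fetoprotein, read 2858, 2898, 49.1 and 23.8 in positive cells against 6475 and 6664 in negative cells (-4.19 ± 1.29), and the retinol carrier Rbp4 1413, 1792, 84.0 and 108 in positive cells against 4223 and 4866 in negative cells (-3.46 ± 0.86). Apoa1, the main protein of high-density lipoprotein, read 189, 319, 3.46 and 4.76 in positive cells against 542 and 637 in negative cells (-3.29 ± 0.94). Positive arrays 1 and 2 thus held intermediate levels of these transcripts, while positive arrays 3 and 4 held almost none. The endoderm factor Hnf4a showed the same order, 81.2, 73.8, 12.3 and 9.57 in positive cells against 248 and 244 in negative cells (-2.56 ± 0.56). Tmprss2, a surface protease, and Lgals2, a galectin, fell by 2.78 ± 0.60 and 2.69 ± 0.55. The exception was Apoc1, a small apolipoprotein, at 259.6, 233, 91.1 and 105 on the positive arrays and 40.7 and 81.9 on the negative arrays (1.28 ± 0.38).

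The same split among the positive arrays ran through the summed signal of whole lists. Visceral endoderm transcripts summed to 46.8, 51.1, 10.9 and 10.02% of the mean of the negative arrays on positive arrays 1 to 4, and endoderm regulators to 34.6, 33.3, 19.9 and 16.8%. Cardiac and muscle genes summed to 35.2, 38.5, 13.7 and 19.05%, and endothelial genes to 36.3, 36.4, 17.8 and 19.5%. Macrophage genes (54.8, 46.6, 50.1 and 59.7%) and fibrous matrix genes (47.2, 51.9, 47.0 and 40.5%) did not split in this way. Positive arrays 3 and 4, with the lowest endoderm sums, had actin ratios of 4.89 and 5.16, near the 5.48 and 5.85 of the negative arrays. Positive arrays 1 and 2, with ratios of 2.04 and 2.17, had endoderm sums closer to those of the negative arrays. The part of RNA quality and of remaining somatic cells in this split was not tested. With only positive arrays 3 and 4, 11 visceral endoderm and 11 regulator genes fell, and the counts with only positive arrays 1 and 2 were 13 and 13. The counts were 3 and 3 within the shared run, 1 and 2 when negative array 1 was left out, and 2 and 3 when negative array 2 was.

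**Figure D4:**
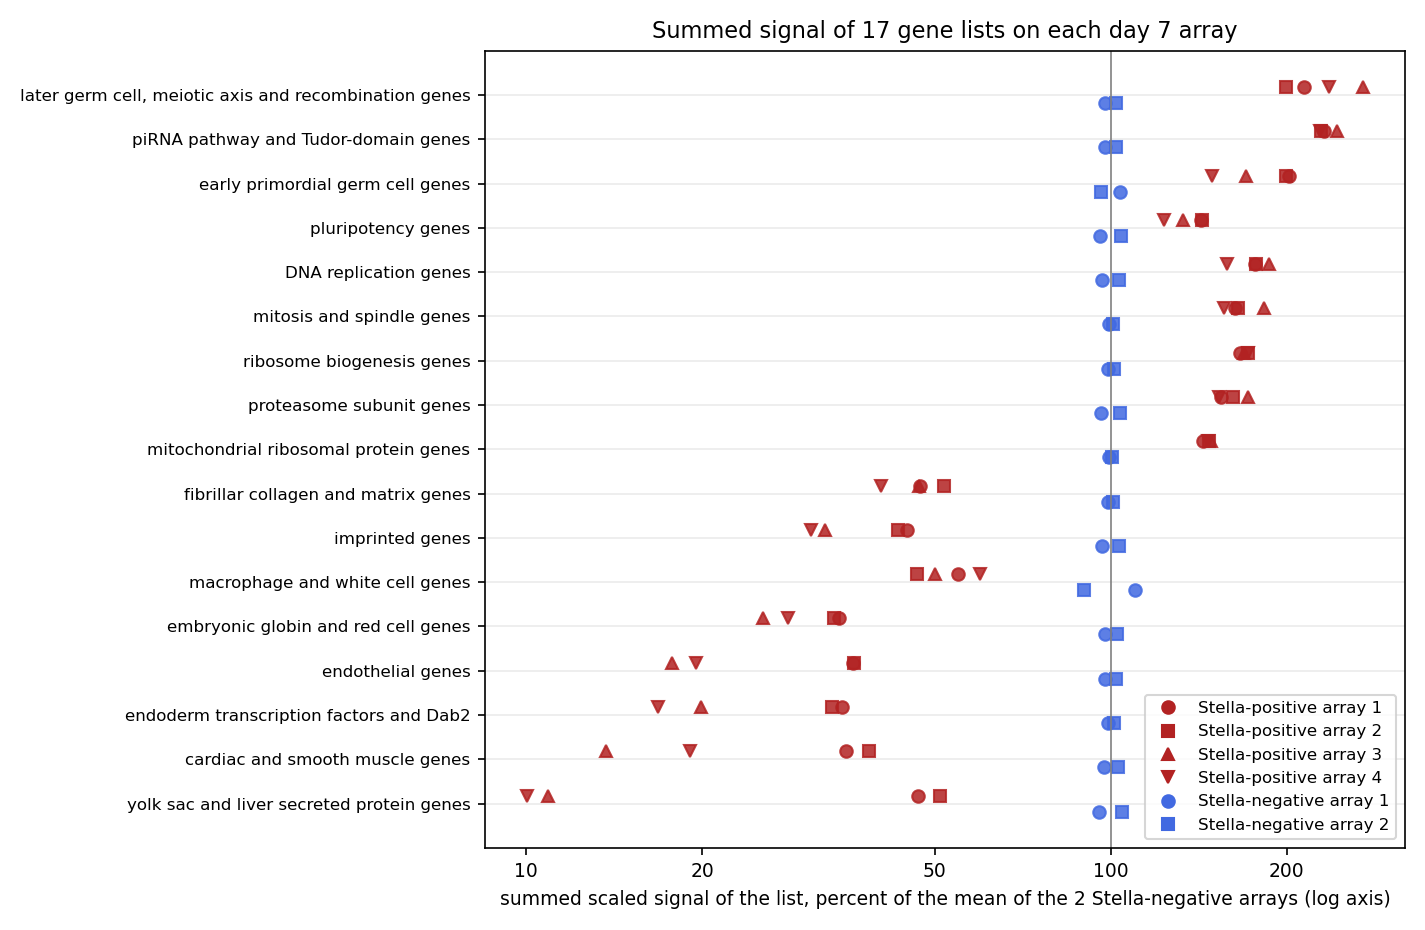
Summed scaled signal of the measured members of selected gene lists on each day 7 array, as a percentage of the mean of the 2 Stella-negative arrays. The other lists are not drawn. Stella-positive arrays are drawn above Stella-negative arrays in each row. Visceral endoderm sums are 46.8 and 51.1% on positive arrays 1 and 2 and 10.9 and 10.02% on positive arrays 3 and 4, while mitosis sums lie between 157 and 183% on all 4.

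Embryonic globin genes were lower in the Stella-positive cells. Hbb-y, an embryonic beta-type globin, read 152, 159, 17.2 and 0.900 on the positive arrays, against 2406 and 2470.0 on the negative arrays (-5.49 ± 0.77), and its neighbour Hbb-bh1 104, 126, 5.66 and 33.2 in positive cells against 1344 and 1387 in negative cells (-4.58 ± 0.62). The alpha-type embryonic globin Hba-x fell by 3.08 ± 0.56. In all, 4 of 15 tested erythroid genes fell and 1 rose (median -0.66). The riser was Rhd, a red cell membrane protein gene, at 95.6, 75.8, 106 and 139.7 in positive cells against 10.2 and 34.7 in negative cells (1.88 ± 0.35). Of 13 macrophage and blood progenitor genes 3 fell and 0 rose. The receptor of macrophage growth factor Csf1r read 125, 83.7, 78.6 and 62.4 in positive cells against 416 and 381 in negative cells (-2.10 ± 0.30), the blood stem cell factor Runx1 fell by 1.44 ± 0.36 and Cd14 by 1.24 ± 0.34. Falls without negative array 1 were 3 erythroid and 1 macrophage gene, and the same numbers fell without negative array 2.

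Endothelial and cardiac genes fell without exception among called members: 16 of 32 endothelial genes (median -1.30) and 18 of 32 cardiac and muscle genes (median -1.53), with 0 and 0 higher. Aplnr, the apelin receptor of mesoderm and vessels, read 456, 425, 43.7 and 1.84 on the positive arrays, against 2354 and 2577 on the negative arrays (-4.52 ± 1.15). Nrp1, a coreceptor of vascular growth factor, read 147, 161, 19.6 and 54.1 in positive cells against 1043 and 987 in negative cells (-3.59 ± 0.61), and the progenitor antigen Cd34 68.5, 49.5, 1.48 and 5.63 in positive cells against 204 and 184 in negative cells (-2.72 ± 0.59). The cardiac transcription factor Hand2 read 59.8, 88.7, 19.5 and 9.48 in positive cells against 503 and 532 in negative cells (-3.54 ± 0.54), and Myl7, the atrial myosin light chain, 349, 388, 6.54 and 56.0 in positive cells against 1177 and 1286 in negative cells (-3.46 ± 0.84). A second light chain gene, Myl4, fell by 3.25 ± 0.80. Positive arrays 3 and 4 were again the lowest for Aplnr, Cd34, Hand2 and Myl7. Within the shared run 5 endothelial and 6 cardiac genes fell, and with run as a block 3 and 4. Falls numbered 3 and 5 when negative array 1 was left out, and 4 and 6 when negative array 2 was.

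Genes of the primitive streak and early mesoderm fell in 7 of 23 cases and rose in 0 (median -1.11), among them the streak homeobox gene Mixl1 (-2.91 ± 0.75), the mesenchymal forkhead gene Foxc2 (-2.88 ± 0.54) and the allantois and limb gene Tbx4 (-1.63 ± 0.54). Connective tissue genes followed: 15 of 41 fibrous matrix genes and 8 of 22 basement membrane genes fell, and 0 and 0 rose (medians -1.26 and -0.61). Col3a1, a fibrillar collagen, read 69.8, 87.3, 63.2 and 18.6 on the positive arrays, against 636 and 593 on the negative arrays (-3.28 ± 0.48), and Col5a2 and Col1a2 fell by 2.41 ± 0.53 and 2.36 ± 0.56. Col4a1, of basement membranes, was even among the positive arrays at 648, 620.5, 615 and 565 in positive cells against 2025 and 2166 in negative cells (-1.76 ± 0.36), and Col4a2 fell by 1.45 ± 0.44. Epithelial genes fell in 7 of 27 cases (median -0.61). The keratin gene Krt8 read 469, 482, 293 and 141 in positive cells against 1406 and 1650.1 in negative cells (-2.25 ± 0.54), and the tight junction genes Cldn6 and Cldn7 fell by 2.09 ± 0.42 and 1.66 ± 0.50. With only positive arrays 3 and 4, 14 epithelial genes fell. Without negative array 1 or 2, mesoderm falls numbered 1 and 1, fibrous matrix 3 and 8, basement membrane 0 and 0 and epithelium 2 and 3.

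Neural, Hox and trophoblast genes differed in few members. Of 26 neural genes 1 rose and 2 fell (median 0.16), and the neural sum on the positive arrays was 98.7 to 120% of the mean of the negative arrays. The riser was Nefh, a neurofilament gene, at 118, 61.3, 120.2 and 182 on the positive arrays, against 4.08 and 16.0 on the negative arrays (2.65 ± 0.35), and the fallers were the adhesion gene Ncam1 (-1.83 ± 0.50) and the neural crest gene Pax3 (-1.17 ± 0.39). Of 17 Hox genes Hoxa9 (-1.36 ± 0.41) and Hoxd13 (-1.24 ± 0.40) fell, and of 9 trophoblast genes Plac1 (-1.28 ± 0.38) and Ets2 (-1.02 ± 0.28) fell. No Hox or trophoblast gene fell without negative array 1 or without negative array 2.

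**Figure D5:**
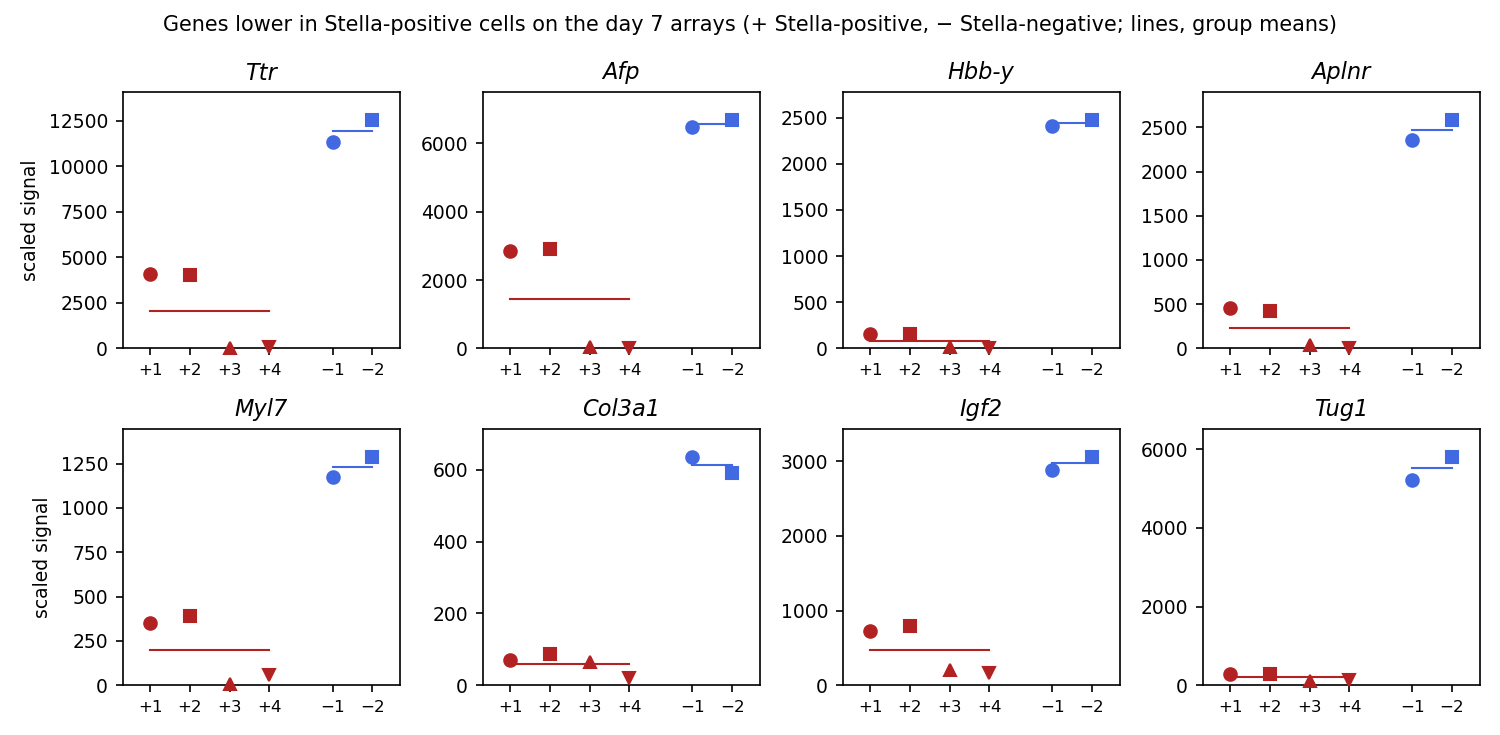
Scaled signal of 8 genes that fell in Stella-positive cells, on each day 7 array, with the 4 Stella-positive arrays on the left (+1 to +4), the 2 Stella-negative arrays on the right (−1 and −2), and horizontal lines at the group means. Ttr, Afp and Myl7 are intermediate on positive arrays 1 and 2 and near 0 on arrays 3 and 4, whereas Tug1 is low on all 4.

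Imprinted genes, expressed from 1 parental copy and reset in the germ line, fell in 21 of 42 tested cases and rose in 2 (median -0.93). Igf2, the fetal growth factor, read 723, 796, 199.8 and 168 on the positive arrays, against 2885 and 3053 on the negative arrays (-2.95 ± 0.59). Dlk1, a Notch-like ligand, read 299, 230.1, 85.3 and 124 in positive cells against 1713 and 1675 in negative cells (-3.27 ± 0.44), and Asb4 fell by 2.97 ± 0.51. The risers Copg2 (1.16 ± 0.22) and Commd1 (1.005 ± 0.23) encode a vesicle coat subunit and a copper-handling protein. The list's summed signal on the positive arrays was 44.8, 43.3, 32.5 and 30.7% of the mean of the negative arrays, with positive arrays 3 and 4 again the lower. Falls numbered 14 within the shared run, 11 without negative array 1 and 12 without negative array 2.

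Called signalling genes were mostly lower. Of 27 genes of BMP signalling 12 fell and 0 rose (median -0.88). The ligand gene Bmp2 read 72.5, 84.9, 42.9 and 31.2 on the positive arrays, against 588 and 449.5 on the negative arrays (-3.02 ± 0.63), and the inhibitory Smad6 fell by 2.37 ± 0.44. The TGF-beta and Nodal list was divided, with 4 higher and 7 lower of 26. Nodal read 718, 649, 855 and 789.7 in positive cells against 366 and 428 in negative cells (0.90 ± 0.27), its relative Gdf3 246, 239, 250.3 and 311 in positive cells against 69.4 and 113 in negative cells (1.45 ± 0.28), and the coreceptor gene Tdgf1 rose by 0.76 ± 0.24. The ligand gene Tgfb2 read 109, 99.2, 26.4 and 49.5 in positive cells against 381 and 478 in negative cells (-2.57 ± 0.41), and the receptor genes Acvr2a and Tgfbr3 fell by 1.52 ± 0.23 and 1.51 ± 0.39. In the insulin-like growth factor list 2 of 18 rose and 8 fell. The binding protein genes differed in direction: Igfbp5 read 235, 270.5, 42.2 and 33.4 in positive cells against 1305 and 1343 in negative cells (-3.57 ± 0.61) and Igfbp7 fell by 2.15 ± 0.58, while Igfbp2 read 756, 906, 544 and 456 in positive cells against 253 and 337 in negative cells (1.11 ± 0.24).

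Among retinoid genes 3 of 17 fell, the carrier Rbp4, the receptor gene Rarb (-1.93 ± 0.47) and Rdh10 (-1.499 ± 0.28), which makes retinal. Of 21 FGF genes the receptors Fgfr3 (-1.45 ± 0.44) and Fgfr2 (-0.81 ± 0.27) and the feedback phosphatase Dusp6 (-0.92 ± 0.21) fell. Fgfr2 passed narrowly (adjusted p = 0.0478), lost its call in 18 of 24 alternatives, and its other tested probe set was at -0.01. Etv4, a transcription factor downstream of FGF, rose by 1.56 ± 0.28 from 1 probe set. Another Etv4 probe set fell, and the mean difference of its probe sets was -0.02. Of 40 Wnt genes 8 fell, with Wnt5a at -1.95 ± 0.57, Tcf7l2 at -1.83 ± 0.36 and the receptor Fzd1 at -1.81 ± 0.30, and 1 rose, the repressor Tcf7l1 at 0.80 ± 0.25. Falls without negative array 1 numbered 2 (BMP), 4 (TGF-beta and Nodal), 2 (insulin-like growth factor), 1 (retinoid), 1 (FGF) and 1 (Wnt), and without negative array 2 they numbered 4, 3, 2, 1, 0 and 3. With Gapdh as a covariate 7 Wnt genes rose and 2 fell. Rises in the TGF-beta and Nodal list numbered 0 and 1 without negative arrays 1 and 2 in turn.

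Stress and immediate early genes, which respond to cell handling, had 1 of 32 higher and 4 lower. Gadd45b, a stress-induced gene, read 339.7, 192, 240.1 and 196 on the positive arrays, against 64.2 and 71.2 on the negative arrays (1.66 ± 0.28, with 1 of 3 probe sets called). Atf3 (-1.61 ± 0.53), Ccn1 (-1.55 ± 0.43) and Zfp36 (-1.07 ± 0.30) fell. With only positive arrays 3 and 4, 11 members fell, and without negative array 1 or 2 the counts were 0 and 0. The list summed to 109, 107, 70.8 and 65.6% of the mean of the negative arrays.

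Long noncoding RNAs moved in both directions. Tug1 read 290.5, 288, 93.5 and 120.2 on the positive arrays, against 5231 and 5797 on the negative arrays (-4.88 ± 0.38, adjusted p = 4.06e-06). All 4 positive arrays were far below both negative arrays. Its 3 tested probe sets differed, at -4.88, -1.17 and -0.13, and the last did not pass. Meg3, transcribed from the imprinted Dlk1 locus, fell by 1.41 ± 0.24 with 7 of 11 probe sets called lower. Xist, which coats the inactive X chromosome, read 322, 207, 186 and 329 in positive cells against 633 and 610.3 in negative cells (-1.26 ± 0.29). Snhg3, host of small nucleolar RNAs, rose by 2.31 ± 0.39 (1488, 1061, 697 and 2491 in positive cells against 259 and 243 in negative cells), and Neat1, the scaffold of paraspeckles, by 1.71 ± 0.50, although its other probe set did not pass and lay on the other side of 0. In all 2 of 12 rose and 4 fell, with 2 falls when either negative array was left out.

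Some of the largest changes lay outside the lists. Stoml1, a stomatin-like membrane protein gene, read 136, 144, 155 and 168 on the positive arrays, against 10.9 and 9.06 on the negative arrays (2.97 ± 0.29). Mylpf, a fast skeletal muscle myosin light chain gene, read 367, 357, 455 and 646 in positive cells against 44.0 and 52.9 in negative cells (2.95 ± 0.36), opposite in direction to the cardiac light chains above. Rps9, a ribosomal protein gene, read 8278, 7356, 6031 and 4590.2 in positive cells against 1378 and 1272 in negative cells (2.27 ± 0.21, with 2 of 3 probe sets called). Shq1, an assembly factor of small nucleolar ribonucleoproteins, rose by 2.43 ± 0.32, the peptidase gene Thop1 by 2.32 ± 0.33 and the transcription factor gene Sp4 by 2.44 ± 0.48. Abcf3 rose by 2.45 ± 0.28 from 1 of 2 probe sets, Epp13 by 2.45 ± 0.35, Pacsin1 by 2.37 ± 0.32 and Calcoco2 by 2.26 ± 0.44. Among the falls, Spink1, a secreted protease inhibitor, read 1460.1, 1365, 55.3 and 56.2 in positive cells against 6670.3 and 6748 in negative cells (-4.45 ± 0.96), in the order of the endoderm genes. Selenop, the plasma carrier of selenium, read 915, 988, 237 and 295 in positive cells against 5408 and 5497 in negative cells (-3.41 ± 0.43), and the X-linked kinase gene Nrk 385, 403, 190.1 and 87.0 in positive cells against 2337 and 2279 in negative cells (-3.29 ± 0.43). Rbms3 (-3.70 ± 0.51), the mesenchymal cadherin gene Cdh11 (-3.44 ± 0.61), the G protein subunit gene Gng11 (-3.31 ± 0.70) and Pigz (-3.12 ± 0.44) also fell.

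The same sort was also made in ESC, so the day 7 difference could be set against the difference between Stella-positive and Stella-negative ESC in an interaction test, with no array shared between the 2 sorts. It called 225 of 30023 probe sets (0.749%), and with 1 probe set per gene 84 genes had a more positive day 7 difference (0.6%) and 29 a more negative one (0.207%). Dppa3 itself differed by 0.75 between the sorts and did not pass (adjusted p = 0.394). Pou5f1 averaged 2182 and 1873 in Stella-positive and Stella-negative ESC, and its day 7 difference exceeded the ESC difference by 1.51 (adjusted p = 0.0215). For Dnmt3l the means in positive and negative ESC were 1125 and 1004 and the excess 1.95 (adjusted p = 0.0397). Tfap2c averaged 256 and 215 in positive and negative ESC, with an excess of 1.77, and Ube2s 2043 and 1695, with an excess of 2.25. On the other side, Hbb-y averaged 0.423 and 0.312 in Stella-positive and Stella-negative ESC, with a difference between the sorts of -5.51 (adjusted p = 0.0345), and Tug1 averaged 354 and 582 in positive and negative ESC, with -4.17 (adjusted p = 0.0044). The interaction count ran from 16 to 398 probe sets when single day 7 arrays were left out, with 16 and 29 without negative arrays 1 and 2. Leaving out single sorted ESC arrays, an alternative added after seeing the data, gave 4 to 121, with 4 without Stella-positive ESC array 2.

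Agreement between probe sets limits single genes. Of 737 risen genes with 2 or more tested probe sets, 123 had all of them called and 485 (65.8%) had only the representative called, and in 27 another probe set was called the other way. Of 690 fallen genes the numbers were 93, 469 (68%) and 19. Tested probe sets differed in sign for Elavl2, Kit, Suz12, Mtf2, Mga, Atr, Mrps11, Mrps5, Psmd7, Fdps, Pdk1, Pfkp, Gadd45b, Abcf3, Sp4 and Ncapd2. The same held for Lin28a, Etv4, Neat1, Hsd17b7, Acvr2a, Tcf7l2, Meg3 and Xist.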

How the data were processed

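The members of the comparison, the gene lists and the naming rule were chosen with earlier results of these data known. The authors deposited linear signal intensity of 45101 probe sets, made with MAS5 according to their processing notes. The sources used here give no version, target or scaling, and MAS5 subtracts background by construction. The authors' columns differed 27.1-fold in trimmed mean (2% off each end), so each was scaled to 105.2 and 10.5 (1/10 of it) added before log2. After removal of 64 control probe sets, 30023 of 45037 exceeded their array's median on at least 2 arrays. The platform annotation gave 34945 probe sets 1 symbol, 932 several and 9160 none. A gene was its single-symbol probe set with the highest mean signal (18193 genes, 14007 tested). All 13 arrays entered a limma 3.58.1 (R 4.3.3) model of 5 group means with a trended prior. Two-sided p-values were Benjamini-Hochberg adjusted across the 30023 probe sets and called under 0.05. Lists are described by counts and medians, without a test of the list.

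Named genes were the 4 markers, up to 25 of the largest rises and falls with groups apart, up to 3 called members per direction of each of 43 lists, and some further genes of germ cells and pluripotency. Tex14, Sohlh2, Ncapd2 and Ccnb2 were added after their values were seen. Probe sets cannot be compared in level with each other. The number of arrays limits the precision, no columns were identical (0 pairs), and the fit was tested on simulated data. Alternatives changed the normalization, constant, filter, prior, weights, arrays, run, covariates, probe set rule and replicate block. Promoters came from RefSeq (GRCm38.p6). Figures were drawn with matplotlib 3.10.9.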

Additional observations from a re-analysis of the deposited data

Results flagged for a closer look

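In 8 of 183 measures examined on the log2 scale, the highest or lowest of the 4 Stella-positive day 7 arrays lay far from the other 3. The gap to its nearest neighbour, as a share of the whole range, was above Dixon's critical value for 4 samples. Chance flags about 1 in 20 such groups. The shares were 0.9043 for Rhox9, 0.8293 for Zbtb33, 0.8535 for Mcm2, 0.8565 for E2f1, 0.9528 for Ncam1, 0.8626 for Smad6, 0.8351 for Pigz and 0.9248 for Ccnb2. The array apart was positive array 2 for Rhox9, positive array 3 for Ncam1 and positive array 1 for Pigz. It was positive array 4, which had the lowest signal before scaling, for Zbtb33, Mcm2, E2f1, Smad6 and Ccnb2.

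For 30 of the named genes the day 7 difference between Stella-positive and Stella-negative cells departed from the same difference in ESC at an adjusted p under 0.05 (limma interaction term). The day 7 difference was the more positive for 21 of them, on the log2 scale: Nefh by 3.06, Ddx49 by 2.87, Abcf3 by 2.77, Stoml1 by 2.62, Thop1 by 2.37, Ube2s by 2.25, Shq1 by 2.22, Mrps11 by 2.20, Etv4 by 1.97, Psmd7 by 1.96, Dnmt3l by 1.95, Rps9 by 1.90, Tfap2c by 1.77, Mga by 1.74, Mnd1 by 1.59, Pou5f1 by 1.51, Igf2bp1 by 1.499, Psmb3 by 1.46, Ndufb10 by 1.42, Ccnb2 by 1.20 and Mcm6 by 1.17. It was the more negative for 9 of them: Hbb-y by -5.51, Hbb-bh1 by -4.53, Tug1 by -4.17, Selenop by -3.71, Hand2 by -3.56, Col3a1 by -3.35, Nrk by -3.34, Pigz by -3.07 and Csf1r by -2.14. Over all probe sets only 4 such departures were called without Stella-positive ESC array 2, against 225 with it. In Hbb-y and Hbb-bh1 the ESC signals were near 0, so that the departure is almost the day 7 difference itself. The actin 3'/5' ratio was 2.04 to 5.16 on positive and 5.48 to 5.85 on negative day 7 arrays, and 1.12 to 1.23 on ESC arrays, and its part in these departures was not tested.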

How the results depend on the processing

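Under the alternatives fitted to single probe sets, the 4926 calls kept their sign wherever still tested, except under quantile normalization and the Gapdh covariate. Quantile normalization turned 1 call, and with the Gapdh covariate 4699 kept their sign. With the mean of all probe sets of a gene, 1 of the 180 genes followed turned direction. The falls numbered 1312 with only the 6 day 7 arrays and 922 under median centring. With hybridisation run as a block 1115 probe sets rose and 625 fell, and within the shared run 1291 rose and 790 fell. Leaving out 1 array at a time gave 837 to 2987 rises and 361 to 3154 falls, with both lowest counts without negative array 1. The cause of these shifts was not tested, nor was the part of the smaller number of arrays. The departure from the ESC sort, 225 probe sets, ran from 16 to 398 when 1 day 7 array was left out and from 4 to 121 when 1 sorted ESC array was, which was added after seeing the data. The lowest count, 4, was without Stella-positive ESC array 2. It was 886 with array weights, 9 with a constant prior, 30 under median centring, 532 under quantile normalization and 114 without the filter. It was 475 with only positive arrays 1 and 2, 825 with only arrays 3 and 4, 7 with run as a block and 109 within the run. It was 1535 with the actin and 2790 with the Gapdh covariate.

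Deviations from the group means gave no sign that the replicate numbers of the titles pair the samples. Those of same-numbered and other arrays correlated between -0.017 and 0.017. The 2 negative arrays deviate by mirror amounts, so this range is symmetric by construction and the check is weak. With the title numbers as a replicate block 2651 probe sets rose and 3054 fell, 3718 of the 4926 calls being called again. A block on the numbers in the array description files, which differ from the titles and were taken up after seeing the data, gave 970 departures from the ESC sort.

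Several genes turned direction. Prdm1, not called, was at 0.042 under median centring and at 0.0014 with run as a block and within the run. With the Gapdh covariate Ifitm3 was at -0.53, Sycp3 at -1.27, Nanog at -0.36, Phc1 at -0.34, Ccnd2 at 0.052, Pfkp at -0.42, Apoc1 at -0.23, Commd1 at -0.11, Tdgf1 at -0.21, Igfbp2 at -0.097 and Mycn at -0.19. Sycp3 was at -0.088 with only positive arrays 3 and 4 and with the block on file numbers, and at -0.24 with the actin covariate. Etv4 was at -0.019 as the mean of its probe sets. Dim signal limits single genes most on positive array 4. Fgfr2, Tbx4 and Pax3, called near the threshold, lost their call in 18, 16 and 15 of 24 alternatives.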
